A study of Mus musculus with 75 samples.

Results

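The comparison described here asks whether a course of cocaine alters the response of D1 nuclei to a later injection. It is a difference of differences. The effect of a cocaine challenge after repeated cocaine (CC minus CS) is taken less the effect of the same challenge after repeated saline (SC minus SS), and this interaction is given on the log2 scale. All 37 libraries labelled D1, of 75 in the series, entered it, with 10 SS, 9 SC, 8 CS and 10 CC libraries; the first letter names the repeated injections and the second the challenge, S for saline and C for cocaine. The nuclei came from punches of the nucleus accumbens of males and were sorted by fluorescence. The mice carried D1-Cre and the Cre-dependent reporter LSL-eGFP::L10a, a green fluorescent protein fused to a ribosomal protein. Injections were intraperitoneal, once a day for 10 days, with saline or cocaine at 20 mg/kg. After 30 days of withdrawal in the home cage a challenge of saline or of cocaine (20 mg/kg) followed, and tissue was taken 1 h later. All 4 groups thus carried the same 2 transgenes and were injected on the same schedule, and SS mice were given saline throughout. The sort is as wide as the driver, so any nucleus in the tissue punch in which D1-Cre had acted could carry the tag. The sources used here give no age and do not say whether a library held nuclei of 1 mouse or of several, so the p-values below measure the spread between these libraries, which may be technical.

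D1 medium spiny neurons are inhibitory projection neurons of the striatum, in which dopamine at the D1 receptor raises cyclic AMP. Protein kinase A, together with calcium and MAP kinase signals, then switches on immediate early genes such as Fos and Arc, whose products act on transcription and synapses. Repeated cocaine is known for sensitised behaviour, and a gene is called primed or desensitised when an earlier course makes its later response larger or smaller. Nuclear RNA holds much unspliced transcript, so long genes gather most of their reads over introns.

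Several libraries stood apart before any comparison was made. Levels are given in CPM, counts per 1000000 of a library's total. Total counts ran from 651445 (SC 5) to 29845486 (SS 10). A quality rule on depth, genes seen, the ratio of Drd1 to Drd2 and correlation with the other D1 libraries failed 3 CC, 2 CS, 3 SC and 0 SS libraries. Reads per base on genes beside the 2 receptor genes pointed to the other line in CC 4, 9 and 10 and in CS 4, against their D1 label. They did so in 0 SS and 0 SC libraries, though SC 5 had too few such reads to tell. In CPM, which take no account of gene length or background, Drd2 exceeded Drd1 in 2 SS, 6 SC, 4 CS and 4 CC libraries. Olfactory and vomeronasal receptor genes, silent in brain, set a background: an even density at their level over all genes would account for a mean of 45.9% ± 11.8 (SD) of counts in SS, 23.1% ± 17.9 in SC, 56.6% ± 19.3 in CS and 45.5% ± 21.4 in CC. The SC minus SS difference of this background share was -22.7 percentage points (2-sided exact permutation p = 0.00574, adjusted p = 0.0115 over the 2 comparisons) and the CC minus CS difference -11.03 points (exact p = 0.271). The share of counts in genes longer than 100 kb was lowest in CC 3 (34.1%) and CC 1 (38.6%). It was highest in SC 2 (64.1%), SC 4 (63.2%), SC 9 (61.7%) and CS 3 (60.1%). CS 3 also had by far the lowest background share of its group, 10.2% beside 54.4% to 70.7% in the other CS libraries. Values without CC 1 and 3, or without CS 3, are therefore given beside many of the results that rest on them. A value that stands without either is not thereby shown to be stable. Medium spiny neuron markers had counts in all 37 libraries.

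**Figure D1:**
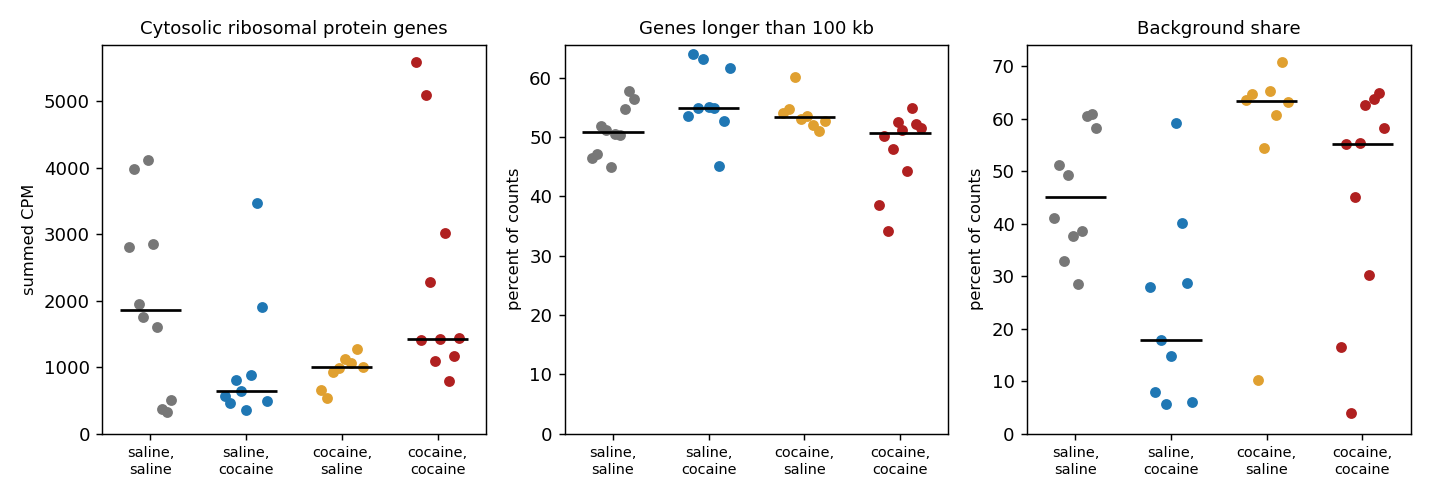
Each point is 1 D1 library, grouped by repeated injection and then challenge, with the group median as a bar. The panels give the summed CPM of cytosolic ribosomal protein genes, the percent of counts in genes longer than 100 kb, and the background share in percent; CC 1 and CC 3 are the 2 highest points of the first panel, at 5584 and 5088 CPM, and the groups overlap in every panel.

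No gene passed the test of the interaction. Below that threshold, genes of the ribosome, respiration and protein folding leaned higher, and long synaptic genes leaned lower. With edgeR's quasi-likelihood test, 0 of 37721 genes had a Benjamini-Hochberg adjusted p under 0.05 (0% called). The smallest adjusted p, 0.0527, was shared by 430 genes, 180 with a positive interaction and 250 with a negative one. At an unadjusted p under 0.05 the same test gave 6936 genes (18.4%), of which 3463 were higher (9.18%) and 3473 lower (9.21%); these shares are the background for the list counts below. Here higher means that the cocaine challenge moved the gene further up, or less far down, after cocaine history than after saline history. The median interaction of all genes tested was 0.15, and values below stand beside that median. Among the 3463 higher genes, the fitted challenge difference was negative with saline history and positive with cocaine history for 2398. It was positive in both for 815 and negative in both for 250. Among the 3473 lower genes it was positive with saline history and negative with cocaine history for 2587, and positive in both for 886. Without CS 3, 5482 genes were higher (14.3%) and 1116 lower (2.92%) at an unadjusted p under 0.05, and the median of all genes was 0.32. With all libraries, the higher genes had a median length of 4.9 kb and the lower genes one of 19.1 kb.

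The count past the threshold depended on the method and on single libraries. DESeq2 called 2939 genes, 1342 higher (3.56%) and 1597 lower (4.23%). The quasi-likelihood test called 1193 with RLE scaling (1.17% higher and 1.99% lower) and 1453 once genes below an average log2 CPM of 1 were dropped (2.02% higher and 3.59% lower). It called 0 after the failing libraries were dropped, 0 without those against their label and 0 without CC 1 and 3 (8153 genes at an unadjusted p under 0.05). The same test called 119 without CC 1 and 3, CS 3 and SC 7, 93 higher (0.245%) and 26 lower (0.0686%). limma with library weights called 17, 4 higher (0.0106%) and 13 lower (0.0345%). Of the 111 genes chosen for naming that the fit without CC 1 and 3, CS 3 and SC 7 could test, 10 passed. Nap1l5 was higher, at 3.32 (quasi-likelihood adjusted p = 0.0426), and Nrxn3, Magi2, Igf1r, P2ry14, Otud7a, Clvs1, Dlg2, Grm7 and Snhg14 were lower, at -0.75 to -1.48 and adjusted p of 0.0364 to 0.0479. Each of these 10 values was closer to 0 there than in the fit with all libraries. At an unadjusted p under 0.05, the fit without CC 1 and 3 gave 9.01% of genes higher and 12.7% lower, and limma 9.08% and 4.78%. Leaving out 1 library at a time gave 0 calls in 27 of the 37 fits and 664 to 2517 in the other 10, with the most, 2517, without SC 7. The remaining 9 were 1431 without SC 8, 1144 without SS 9, 1002 without CC 8, 983 without SS 8, 800 without SC 6, 793 without SS 10, 773 without CC 6, 687 without CC 5 and 664 without CC 9.

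Genes of translation and respiration had the largest positive median interactions of the lists examined. Cytosolic ribosomal protein genes, which build the 2 subunits of the ribosome, had a median interaction of 2.36 beside 0.15 for all genes, and 80 of the 86 tested were higher at an unadjusted p under 0.05, with 0 lower (background 9.18%); 0 passed the adjusted threshold. Their median challenge difference was -0.56 with saline history and 1.88 with cocaine history. Their summed level ran from 321 to 4121 CPM in SS (median 1855) and from 355 to 3463 in SC (639.9). It ran from 530.5 to 1276 CPM in CS (999) and from 791 to 5584 in CC (1429). SS 8, 9 and 10 lay with the SC libraries, at 369, 321 and 507 CPM, and SC 7 lay with the upper SS libraries at 3463. Without CC 1 and 3 the list's median was 1.32, with 52 members higher, and with library weights in limma it was 0.55, with 3 higher. Near-identical ribosomal pseudogenes can take or lend reads in such counts, so single members are uncertain.

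Rps26 lay between 2.09 and 37.8 CPM in SS (median 18.3) and between 1.02 and 28.9 in SC (3.87). In CS, Rps26 lay between 3.44 and 9.75 CPM (median 6.62), and in CC between 6.78 and 62.4 (13.2). Rps26 encodes a protein of the small subunit (ENSMUSG00000025362.6, chromosome 10, 128624534 to 128626747, minus strand). Its CC and CS ranges overlapped, although all 10 CC libraries lay above the CS mean of 6.72 ± 2.49 CPM (SD, n = 8), and 1 of 9 SC libraries lay above the SS mean. The fitted interaction was 3.29 ± 0.80 (SE; quasi-likelihood adjusted p = 0.0527), made of -0.95 ± 0.55 in SC minus SS and 2.34 ± 0.59 in CC minus CS (adjusted p = 0.017). Rpl3 and Rpl29, of the large subunit, gave 2.81 ± 0.70 and 3.28 ± 0.82 at the same adjusted p.

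Nuclear-encoded respiratory chain genes, whose products form the electron transport complexes and ATP synthase, had a median interaction of 1.68, with 69 of 96 higher and 2 lower at an unadjusted p under 0.05. Ndufb10 spanned 2.68 to 47.3 CPM in the SS libraries, with a median of 27.2, and 2.21 to 36.9 in the SC libraries, with a median of 6.98. Cocaine-history libraries gave Ndufb10 values of 5.69 to 10.7 CPM in CS (median 8.202) and 6.99 to 86.5 in CC (18.9). Ndufb10, a subunit of complex I (ENSMUSG00000040048.14, chromosome 17, 24722060 to 24724478, minus strand), thus had its lowest median in SC and its highest single values in CC, and its ranges overlapped in every pair of groups. Its interaction was 3.47 ± 0.80 (adjusted p = 0.0527), and 9 of 10 CC libraries lay above the CS mean. Uqcrq of complex III gave 3.46 ± 0.88 and Atp5h of ATP synthase 2.92 ± 0.74. Without CC 1 and 3 the list's median was 0.79 and the value of Ndufb10 2.32.

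The mitochondrial genome, whose transcripts are made outside the nucleus, went the same way: 12 of the 13 tested genes were higher and 0 lower at an unadjusted p under 0.05, with a median of 2.35. With saline history, mt-Nd4 ranged from 3.596 to 73.5 CPM in SS (median 22.2) and from 1.501 to 52.5 in SC (6.24). With cocaine history, mt-Nd4 ranged from 5.44 to 20.3 CPM in CS (median 10.5) and from 11.5 to 93.3 in CC (26.6). mt-Nd4, another complex I subunit, had an interaction of 2.59 ± 0.80 (adjusted p = 0.0684), and all 10 CC libraries lay above the CS mean. Without CC 1 and 3 its interaction was 1.71. The summed level of the mitochondrial genes was lowest in SC 2 and SS 10 (118 and 181 CPM) and highest in CC 1 (4405). mt-Nd4 and mt-Nd4l overlap on the same strand, so their reads cannot be fully told apart.

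Heat shock and chaperone genes, which fold newly made and damaged proteins, had a median interaction of 1.32, with 11 of 21 higher and 0 lower at an unadjusted p under 0.05. Hsp90aa1 lay between 21.2 and 416 CPM in SS (median 299) and between 35.3 and 396 in SC (63.4). In CS, Hsp90aa1 lay between 40.1 and 135 CPM (median 96.99), and in CC between 110.2 and 944 (235). Hsp90aa1, the inducible form of the HSP90 chaperone (ENSMUSG00000021270.13, chromosome 12, 110690605 to 110702728, minus strand), was above the CS mean in all 10 CC libraries, and its CC and CS ranges touched between 110.2 and 135 CPM. Its interaction was 3.38 ± 0.78 (adjusted p = 0.0527), made of -0.67 ± 0.53 with saline history and 2.71 ± 0.59 with cocaine history (adjusted p = 0.017). CC 1 and CC 3 held 827 and 944 CPM, and without them the interaction was 2.40 (adjusted p = 0.0633). Hsp90ab1, the constitutive form, gave 3.06 ± 0.77, and Hspd1, the mitochondrial chaperonin, 2.48 ± 0.63.

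The 10 genes with the smallest p in the positive direction included the following. Eef1a1, an elongation factor that brings transfer RNA to the ribosome, gave 3.38 ± 0.78, and Actg1, cytoplasmic actin, 3.64 ± 0.87. Pebp1, an inhibitor of Raf kinase, gave 3.15 ± 0.75, and Cetn2, a centrin, 3.17 ± 0.73. The X-linked relatives Bex1, Bex2 and Tceal6 gave 3.85, 3.70 and 3.60. With saline history, Nap1l5 ranged from 3.03 to 50.7 CPM in SS (median 31.7) and from 3.44 to 36.4 in SC (6.67). With cocaine history, Nap1l5 ranged from 3.14 to 16.96 CPM in CS (median 11.1) and from 10.7 to 93.1 in CC (20.4). Nap1l5, an imprinted gene that lies within Herc3 on the other strand, gave 3.49 ± 0.79, and 9 of 10 CC libraries lay above the CS mean. All of these had an adjusted p of 0.0527. Each of these 8 genes kept a positive sign under every other setting and every left-out library, but their size did not hold. In limma with library weights Nap1l5 gave 2.47 and the others 1.02 (Pebp1) to 1.40 (Bex2), and none passed. Without CC 1 and 3 the 8 values ran from 1.96 (Pebp1) to 2.72 (Bex1).

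**Figure D2:**
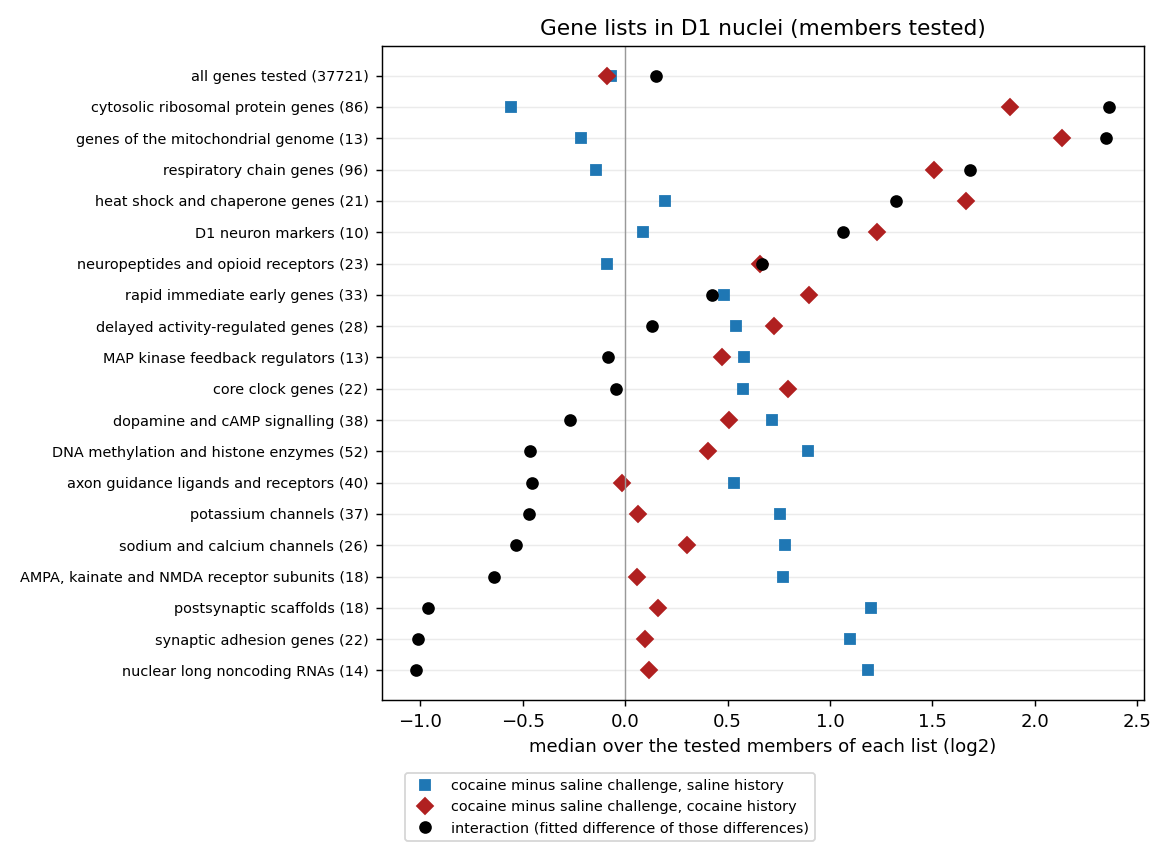
Each row is a gene list, with the number of members tested, and each mark the median over them on the log2 scale. Squares give the challenge difference with saline history, diamonds that with cocaine history and circles the fitted interaction; ribosomal, mitochondrial, respiratory and chaperone genes sit to the right of all genes (0.15), and synaptic adhesion genes, scaffolds and nuclear noncoding RNAs to the left.

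With all libraries, synaptic adhesion genes and scaffolds had the opposite pattern. Their fitted challenge differences were positive after saline history and near 0 after cocaine history. Challenge differences within a history were fitted with all libraries only, so every CC minus CS difference includes CS 3. CS 3 held a summed 29661 CPM of the adhesion genes, and the next CS library 15959. Whether their CC minus CS difference stays near 0 without CS 3 was not tested. Of 22 synaptic adhesion genes, which join the pre- and postsynaptic membranes, 13 were lower and 2 higher at an unadjusted p under 0.05 (background 9.21% lower), with a median interaction of -1.01. Their median challenge difference was 1.10 with saline history and 0.10 with cocaine history. The size of these negative values rested in good part on CS 3. Of the 57 genes chosen for naming with an interaction of -0.5 or lower, 45 moved by over 1.5 times without CS 3, as did 18 without SC 4, 15 without SC 2, 14 without SC 9 and 7 without SC 5. Without CS 3 the list had a median of -0.41, 6 lower and 2 higher. Nrxn3 lay between 2544 and 4089 CPM in SS (median 3133) and between 2385 and 9671 in SC (6059). In CS, Nrxn3 lay between 1638 and 8601 CPM (median 2636), and in CC between 2040.2 and 2934 (2622). Nrxn3, a neurexin that binds neuroligins across the cleft (ENSMUSG00000066392.12, chromosome 12, 88722876 to 90334935, plus strand), was highest in SC, with 8 of 9 SC libraries above the SS mean. None of the 10 CC libraries lay above the CS mean, but 6 of 10 lay above the mean of the other 7 CS libraries (2495 CPM). CS 3 alone reached 8601 CPM, and the next CS library held 2899.9. The interaction was -2.11 ± 0.49 (adjusted p = 0.0527) and -1.03 without CS 3.

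Opcml spanned 692 to 1249 CPM in the SS libraries, with a median of 964, and 874 to 1786 in the SC libraries, with a median of 1537. Cocaine-history libraries gave Opcml values of 871 to 1782 CPM in CS (median 1001) and 395 to 1093 in CC (883). Opcml, a cell adhesion protein that binds opioids (ENSMUSG00000062257.13, chromosome 9, 27790775 to 28925410, plus strand), rose in SC against SS (1.23 ± 0.25, adjusted p = 0.00322) and gave -0.34 ± 0.25 in CC against CS. Its interaction was -1.57 ± 0.35 (adjusted p = 0.0527), and -0.89 without CS 3. Lrrtm4, a postsynaptic partner of neurexins, gave -1.59 ± 0.41, and Cntnap2, a neurexin relative that gathers potassium channels, -1.45 ± 0.39.

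Postsynaptic scaffolds, which hold glutamate receptors at the synapse, had a median of -0.96, with 11 of 18 lower and 0 higher at an unadjusted p under 0.05, and without CS 3 a median of -0.40, 3 lower and 1 higher. With saline history, Magi2 ranged from 930.2 to 1450.5 CPM in SS (median 1188) and from 961 to 2386 in SC (1636). With cocaine history, Magi2 ranged from 1066 to 2107 CPM in CS (median 1224) and from 584 to 1327 in CC (1079). Magi2, a scaffold with several PDZ domains, rose in SC against SS (1.21 ± 0.24, adjusted p = 0.00322) and had an interaction of -1.48 ± 0.34 (adjusted p = 0.0527), and -0.82 without CS 3. Dlg2, also known as PSD-93, gave -2.01 ± 0.48, Dlgap1, which binds it, -1.18 ± 0.30, and Grip1, which binds AMPA receptors, -1.62 ± 0.36. Homer1 lay between 86.6 and 307 CPM in SS (median 230.4) and between 184 and 699 in SC (362). In CS, Homer1 lay between 90.2 and 480.3 CPM (median 202), and in CC between 139.8 and 386 (194). Homer1, a scaffold of metabotropic glutamate receptors with a short form induced by activity, gave -1.35 ± 0.53 (adjusted p = 0.149; -0.48 without CS 3); its rise in SC against SS was 1.49 ± 0.38 (adjusted p = 0.00913) and its CC minus CS difference 0.14 ± 0.39. CS 3 held 480.3 CPM of Homer1 and the next CS library 219, and the CC minus CS difference was not refitted without CS 3. Gene-level counts do not separate the short form from the long ones.

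Receptors and channels that carry synaptic and spiking currents leaned the same way with all libraries, and much of this was lost without CS 3. Of 18 ionotropic glutamate receptor subunits 7 were lower and 0 higher at an unadjusted p under 0.05 (median -0.64), with the AMPA subunit gene Gria3 at -1.35 ± 0.49 and the delta receptor gene Grid1 at -1.27. Of 8 metabotropic glutamate receptors 3 were lower and 0 higher, among them the presynaptic Grm7 (-1.90 ± 0.47) and the postsynaptic Grm5 (-1.62 ± 0.52). Potassium channel genes, which set the resting potential and end the spike, had 17 of 37 lower and 0 higher, with Kcnd2 at -1.95 ± 0.54 and Kcnb2 at -1.44 ± 0.37. Sodium and calcium channel genes had 10 of 26 lower and 1 higher, with the calcium channel subunits Cacnb2 and Cacna1a at -1.87 and -0.99. Axon guidance genes had 14 of 40 lower and 2 higher, with the netrin receptor Unc5c at -1.16, the Slit receptor Robo1 at -1.74 and its ligand Slit3 at -1.44. Without CS 3, ionotropic glutamate receptor subunits had a median of -0.14, 1 lower and 2 higher, and metabotropic ones a median of -0.23, 1 lower and 0 higher. Potassium channel genes then had a median of -0.13, 2 lower and 5 higher, sodium and calcium channel genes a median of -0.0042, 1 lower and 4 higher, and axon guidance genes a median of -0.11, 4 lower and 3 higher. None passed the adjusted threshold with all libraries; the adjusted p of the genes named in this paragraph lay between 0.0527 and 0.112.

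Synaptic vesicle fusion genes were split, with 5 of 27 higher and 7 lower (median -0.23); without CS 3 they had a median of 0.35, 3 lower and 9 higher. The active zone genes Rims1 and Rims2 gave -1.07 and -1.56, and Stx1a, a membrane SNARE protein, -2.08 ± 0.69 (adjusted p = 0.085). Without SC 5 the value of Stx1a was -0.05. Igf1r, the receptor of insulin-like growth factor, was among the 10 genes with the smallest p in the negative direction. Igf1r lay between 163 and 250.5 CPM in SS (median 194) and between 195 and 329 in SC (248). In CS, Igf1r lay between 217 and 276 CPM (median 229), and in CC between 106 and 239 (209). Its ranges overlapped throughout. In the fit Igf1r rose in SC against SS (0.95 ± 0.17, adjusted p = 0.00293) and gave -0.14 ± 0.17 in CC against CS. Its interaction was -1.09 ± 0.24 (adjusted p = 0.0527), and -0.66 without CS 3. Fitted values of this and other genes carry library scaling factors (TMM) of 0.522 to 1.44, which CPM do not. A fitted rise can therefore exceed the one between CPM medians. Others of the 10 were Dmpk, a protein kinase (-1.70), Otud7a, a deubiquitinase (-1.65), Clvs1, a lipid-binding protein (-1.86), and Ppm1h, a phosphatase (-1.37), all at an adjusted p of 0.0527.

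Nuclear long noncoding RNAs stay at their site of synthesis or in nuclear bodies, and 7 of the 14 tested were lower and 1 higher at an unadjusted p under 0.05, with a median of -1.02. Without CS 3 they had a median of -0.18, 2 lower and 1 higher. Neat1 spanned 9.14 to 20.2 CPM in the SS libraries, with a median of 12.1, and 6.15 to 35.99 in the SC libraries, with a median of 12.9. Cocaine-history libraries gave Neat1 values of 13.7 to 27.6 CPM in CS (median 17.3) and 4.15 to 14.9 in CC (12.6). Neat1, the scaffold RNA of paraspeckles (ENSMUSG00000092274.3, chromosome 19, 5824708 to 5845478, minus strand), fell in CC against CS (-0.73 ± 0.23, adjusted p = 0.0369), and 0 of 10 CC libraries lay above the CS mean. In SC against SS it gave 0.66 ± 0.22 (adjusted p = 0.0476), although 4 of 9 SC libraries lay above the SS mean on the CPM scale, and SC 6 was the highest. Its interaction was -1.39 ± 0.32 (adjusted p = 0.0527), and -0.88 without CS 3. Snhg14, host of imprinted small nucleolar RNAs, gave -1.93 ± 0.47, and Meg3, an imprinted RNA, -2.19 ± 0.63 (-1.07 without CS 3); Snhg14 overlaps Ube3a on the other strand. Of 52 DNA methylation and histone enzymes, 13 were lower and 2 higher, with a median of -0.46. Without CS 3 they had a median of 0.098, 3 lower and 6 higher. With all libraries the deacetylases Hdac8 and Hdac7 gave -1.12 and -1.61 and the methyl-CpG-binding family member Mbd5 -1.13. Hdac7 was highest in SC 5 (196 CPM) and SC 1 (101 CPM). Its value was -0.72 without SC 5 and -0.24 in limma with library weights.

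These lists differ in gene length, and the interaction followed length across all expressed genes. Over genes whose average log2 CPM reached 1, the median interaction was 0.72 for the 455 genes of up to 1 kb and 0.89 for the 1062 of 1 to 3 kb. It was 0.00 for the 6491 of 30 to 100 kb and -0.63 for the 612 longer than 300 kb. In that longest class 329 genes were lower and 0 higher at an unadjusted p under 0.05, and in the class of 1 to 3 kb 147 were lower and 451 higher. Without CS 3 the medians were 1.21 for 1 to 3 kb and -0.25 for over 300 kb, where 128 were lower and 1 higher. With all libraries the longest class had a median challenge difference of 0.54 with saline history and -0.14 with cocaine history. Ribosomal protein genes had a median length of 3.27 kb and synaptic adhesion genes one of 678 kb. The silent olfactory and vomeronasal receptor genes that set the background had a median interaction of 0.56, beside 0.15 for all genes. Of the 1314 tested, 1180 lay above 0 and 134 below. At an unadjusted p under 0.05, 68 were higher and 11 lower, beside 3463 and 3473 of all 37721 genes. Their median challenge difference was -0.74 with saline history and -0.18 with cocaine history. Background share and the share of counts in long genes also varied across the groups, as given above. The part of these shares in the list results was not tested. With the background share as a covariate the median of ribosomal genes was 1.84 and that of synaptic adhesion genes -0.51.

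**Figure D3:**
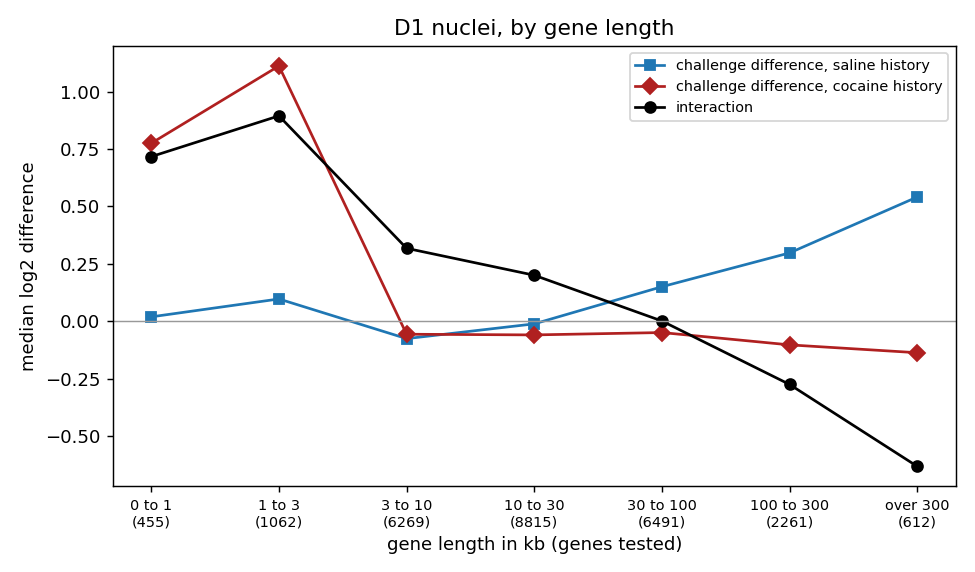
Median log2 difference against gene length in kb, for genes whose average log2 CPM reached 1, with the number of genes under each class. Lines give the challenge difference with saline history (squares), with cocaine history (diamonds) and the interaction (circles), which falls from 0.89 in genes of 1 to 3 kb to -0.63 in genes longer than 300 kb.

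Rapid immediate early genes had no common direction. Of 33 tested, 6 were higher and 2 lower at an unadjusted p under 0.05 (background 9.18% and 9.21%), and the median interaction was 0.42 beside 0.15 for all genes. Their median challenge difference was 0.48 with saline history and 0.90 with cocaine history. Without CC 1 and 3 the median was -0.17, with 0 higher and 7 lower, and with library weights in limma -0.34, with 0 higher and 11 lower. Without CS 3 it was 0.75, with 9 higher and 0 lower. The direction of the list therefore rested on single libraries. Fitted differences carry TMM factors of 0.522 to 1.44, so they can differ in sign from the CPM medians: the SC medians of Fos, Fosb, Arc and Npas4 lay below those of SS, while the fitted SC minus SS values were 0.46, 0.80, 0.61 and 0.11. With total counts only, the list's median interaction was 0.46, beside 0.42 for all genes.

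The promoters of 3 activity-regulated genes and of Eef1a1 are shown because immediate early genes are known for cyclic AMP response elements (CRE) in their promoters. The windows are the 250 bases before the RefSeq start (GRCm38.p6, 5′ to 3′ on the gene's strand). Capitals mark the CRE core TGACG on either strand, which reads CGTCA where it lies on the other. The windows lie at chr12:85473640-85473889 (plus strand) for Fos, chr15:101266596-101266845 (plus) for Nr4a1, chr13:93303507-93303756 (plus) for Homer1 and chr9:78481725-78481974 (minus) for Eef1a1. That of Fos ends just before the annotated gene, and the others lie within the GENCODE span of their gene, in no annotated exon.
Fos: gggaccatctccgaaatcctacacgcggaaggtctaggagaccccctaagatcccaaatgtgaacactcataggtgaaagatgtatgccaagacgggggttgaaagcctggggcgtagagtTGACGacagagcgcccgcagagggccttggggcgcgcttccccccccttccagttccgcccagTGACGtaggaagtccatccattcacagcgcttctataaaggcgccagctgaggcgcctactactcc
Nr4a1: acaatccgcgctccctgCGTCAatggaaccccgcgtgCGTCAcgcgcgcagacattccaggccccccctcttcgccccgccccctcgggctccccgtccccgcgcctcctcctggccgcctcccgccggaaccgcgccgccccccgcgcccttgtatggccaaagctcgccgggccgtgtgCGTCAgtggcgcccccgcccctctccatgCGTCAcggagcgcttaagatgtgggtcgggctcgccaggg
Homer1: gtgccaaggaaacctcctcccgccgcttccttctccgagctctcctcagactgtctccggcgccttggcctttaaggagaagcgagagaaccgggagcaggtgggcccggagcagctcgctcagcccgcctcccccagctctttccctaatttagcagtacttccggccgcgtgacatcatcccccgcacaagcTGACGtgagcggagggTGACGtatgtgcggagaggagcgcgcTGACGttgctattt
Eef1a1: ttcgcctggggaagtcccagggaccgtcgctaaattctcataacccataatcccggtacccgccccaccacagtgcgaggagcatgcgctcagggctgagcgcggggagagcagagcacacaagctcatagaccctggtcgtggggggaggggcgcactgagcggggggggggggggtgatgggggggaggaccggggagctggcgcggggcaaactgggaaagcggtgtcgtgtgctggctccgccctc
The core occurred 2 times in the window of Fos, 4 times in that of Nr4a1, 3 times in that of Homer1 and 0 times in that of Eef1a1. Among immediate early genes 15 of 26 windows held it (57.7%), beside 19.6% of all 20542 windows. The full CRE (TGACGTCA) was in 2 of 26 (7.69%, all windows 1.9%). The AP-1 site (TGANTCA) was in 0 (all windows 6.43%) and the E-box (CACGTG) in 4 (all windows 6.4%). The core TGACG was not particular to immediate early genes. It was in 8 of 16 windows of heat shock and chaperone genes (50%). Ribosomal protein genes had it in 25 of 64 (39.1%) and respiratory chain genes in 23 of 76 (30.3%). Synaptic adhesion genes had it in 3 of 16 (18.8%) and scaffolds in 2 of 14 (14.3%). No gene was called, so the windows of the 10 genes ranked in each direction were counted in place of called genes. The core was in 4 of 9 windows of the higher genes and 1 of 8 of the lower genes. A match is a string of letters in a window, not evidence of binding.

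Fosb, Fos, Arc and Egr1 had no interaction past the threshold, and their values moved with CC 1 and 3. Fosb lay between 3.46 and 8.997 CPM in SS (median 6.03) and between 0 and 21.7 in SC (4.42). In CS, Fosb lay between 3.59 and 9.05 CPM (median 5.702), and in CC between 5.799 and 34.2 (9.38). Fosb, whose truncated product accumulates with repeated cocaine, had 9 of 10 CC libraries above the CS mean and 4 of 9 SC libraries above the SS mean, with overlap in both pairs. Fosb rose in CC against CS (1.70 ± 0.44, adjusted p = 0.0173) and gave 0.80 ± 0.41 in SC against SS. The interaction of 0.90 ± 0.59 did not pass (adjusted p = 0.428), and without CC 1 and 3 it turned to -0.15. CC 1 and CC 3 held 25.1 and 34.2 CPM. Fos spanned 2.03 to 8.93 CPM in the SS libraries, with a median of 4.78, and 0 to 20.2 in the SC libraries, with a median of 3.16. Cocaine-history libraries gave Fos values of 3.11 to 6.27 CPM in CS (median 5.86) and 4.04 to 16.6 in CC (5.16). Fos, the partner of Jun in AP-1, gave 0.43 ± 0.64 (adjusted p = 0.746) and -0.53 without CC 1 and 3.

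With saline history, Arc ranged from 3.07 to 26.7 CPM in SS (median 15.1) and from 0 to 75.2 in SC (8.14). With cocaine history, Arc ranged from 6.52 to 18.6 CPM in CS (median 10.2) and from 8.296 to 51.2 in CC (20.4). Arc, which drives endocytosis of AMPA receptors, was highest in SC 7 (75.2 CPM), CC 3 (51.2) and CC 1 (38.8), and its ranges overlapped in every pair of groups. Its interaction was 0.86 ± 0.68 (adjusted p = 0.514), and 0.07 without CC 1 and 3. Egr1 lay between 5.23 and 76.4 CPM in SS (median 32.9) and between 4.61 and 103 in SC (32.6). In CS, Egr1 lay between 13.02 and 38.5 CPM (median 24.4), and in CC between 20.8 and 206 (59.7). Egr1, a zinc finger transcription factor, rose in CC against CS (2.11 ± 0.55, adjusted p = 0.0179), gave 0.74 ± 0.50 in SC against SS, and had an interaction of 1.37 ± 0.73 (adjusted p = 0.313). With 8 of 10 CC libraries above the CS mean, CC 1 and 3 stood highest at 162 and 206 CPM, and without them the interaction was 0.28.

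Nr4a3 and Nr4a1, and the clock gene Per1, rose in SC against SS. Nr4a3 spanned 25.7 to 49.3 CPM in the SS libraries, with a median of 34.5, and 4.61 to 121 in the SC libraries, with a median of 71.1. Cocaine-history libraries gave Nr4a3 values of 34.0 to 65.5 CPM in CS (median 45.1) and 37.4 to 118 in CC (45.2). Nr4a3, an orphan nuclear receptor, rose in SC against SS (1.55 ± 0.36, adjusted p = 0.00577) and gave 0.59 ± 0.37 in CC against CS (adjusted p = 0.477). The difference of the 2, -0.96 ± 0.51, did not pass in the quasi-likelihood test (adjusted p = 0.311). With library weights in limma it was -1.30 and passed (adjusted p = 0.0251), the single immediate early gene among the 17 called there, and it stayed negative under all 15 other settings, with adjusted p from 0.0251 to 0.393. CC 3 was the highest CC library, with 118 CPM, and without CC 1 and 3 the value was -1.71 (adjusted p = 0.0555); it was -0.42 without CS 3 and -0.47 without SC 9. Nr4a1, its relative, rose in both histories, by 1.36 ± 0.37 and 1.20 ± 0.39 (adjusted p = 0.0149 and 0.0442), and its interaction was -0.16 ± 0.53.

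Per1 lay between 15.5 and 47.3 CPM in SS (median 31.6) and between 28.8 and 80.3 in SC (57.2). In CS, Per1 lay between 19.8 and 40.1 CPM (median 24.8), and in CC between 17.5 and 129 (38.7). Per1, a clock repressor that is also induced by cyclic AMP, rose in both histories as well, by 1.48 ± 0.38 and 1.38 ± 0.40 (adjusted p = 0.011 and 0.028), with 8 of 9 SC libraries above the SS mean and 8 of 10 CC libraries above the CS mean. Its interaction was -0.10 ± 0.55 (adjusted p = 0.943), and a p that misses the threshold does not show that the responses were alike. Npas4, induced by calcium entry, gave 0.39 ± 0.49, with 9.298 to 25.04 CPM in SS, 1.54 to 31.01 in SC, 8.199 to 20.4 in CS and 8.82 to 29.8 in CC. The 3 rapid immediate early genes with the smallest p were Jund (2.21 ± 0.82), an AP-1 partner, Ppp1r15a (1.35 ± 0.52), a regulator of translation under stress, and Ier5 (1.77 ± 0.69), and their adjusted p lay between 0.124 and 0.143. Without CC 1 and 3 their values were 1.10, 0.51 and 0.76.

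**Figure D4:**
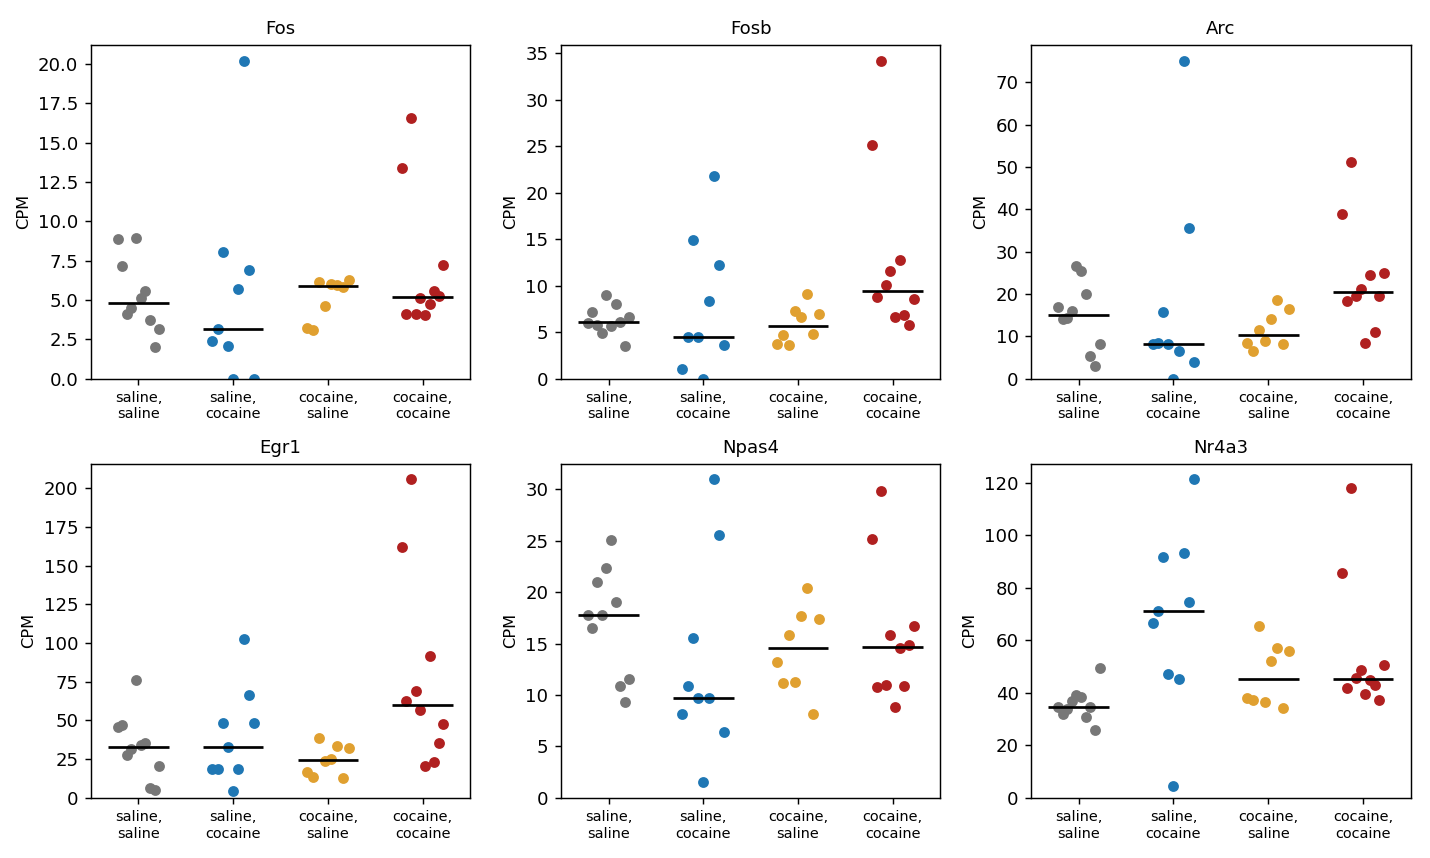
CPM of 6 immediate early genes, 1 point per D1 library with the group median as a bar, grouped by repeated injection and then challenge. Nr4a3 is high in most libraries of the saline, cocaine group (median 71.1 CPM) and near the cocaine, saline level in most of the cocaine, cocaine group (45.2), and the highest Fosb, Egr1 and Arc values of the cocaine, cocaine group come from few libraries.

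Later and feedback layers of the response were mixed. The 28 delayed activity-regulated genes held 4 higher and 3 lower members (median 0.13; without CS 3 a median of 0.49, 1 lower and 6 higher). The G protein regulators Rgs4 and Rgs2 gave 2.98 ± 0.76 and 2.71 ± 0.73 (adjusted p = 0.0527 for both) and the sortilin relative Sorcs3 -1.01 ± 0.29. Without CC 1 and 3, Rgs4 gave 1.72 and Rgs2 1.59, and without CS 3 Sorcs3 gave -0.53. Bdnf, a neurotrophin, gave 0.12 ± 0.45 (adjusted p = 0.917). Of 13 MAP kinase feedback regulators 0 were higher and 1 lower, the latter Spred2 (-1.10 ± 0.39, and -0.45 without CS 3). Of 22 core clock genes 3 were higher and 4 lower (median -0.04; without CS 3 a median of 0.44, 2 lower and 3 higher), with the repressor Nr1d1 at 1.83 ± 0.64 and the activators Npas2 and Rora at -1.75 ± 0.47 and -1.54 ± 0.40. Nr1d1 overlaps Thra on the other strand. Without CC 1 and 3 the value of Nr1d1 was 0.82, and without CS 3 those of Npas2 and Rora were -0.75 and -0.73.

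Dopamine receptors, the start of the pathway, had fitted interactions of either sign, and none passed the threshold. With library weights in limma Drd1 gave 0.096, Drd2 0.65 and Drd3 -0.55, so the sign of Drd2 changed with the method. Drd1 lay between 17.5 and 229 CPM in SS (median 136) and between 16.9 and 219 in SC (61.3). In CS, Drd1 lay between 29.7 and 84.7 CPM (median 73.1), and in CC between 28.2 and 478 (119). Drd1, the receptor that names the line (ENSMUSG00000021478.6, chromosome 13, 54051183 to 54055705, minus strand), rose in CC against CS (1.81 ± 0.57, adjusted p = 0.0387) and gave -0.23 ± 0.52 in SC against SS, with an interaction of 2.03 ± 0.76 (adjusted p = 0.127). CC 3 and CC 1 held 478 and 366 CPM and CC 4 and CC 9, against their label, 44.8 and 28.2; SS 8 and SS 9 held 17.5 and 22.3. Without CC 1 and 3 the interaction was 0.76, and without the libraries against their label 2.22. Fewer nuclei of a type and less RNA per nucleus cannot be told apart in such libraries.

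Drd2 spanned 41.4 to 64.2 CPM in the SS libraries, with a median of 53.2, and 32.8 to 199.6 in the SC libraries, with a median of 83.97. Cocaine-history libraries gave Drd2 values of 50.04 to 465 CPM in CS (median 71.4) and 38.8 to 718 in CC (60.02). Drd2, the receptor of the other medium spiny neurons, was at or above 363 CPM in CC 4, 7, 9 and 10 and in CS 4, and gave -0.48 ± 0.69 (adjusted p = 0.741) with all libraries and -1.01 without those against their label. With saline history, Drd3 ranged from 52.4 to 79.6 CPM in SS (median 67.4) and from 56.6 to 150.4 in SC (93.8). With cocaine history, Drd3 ranged from 59.1 to 121 CPM in CS (median 71.5) and from 43.9 to 90.8 in CC (58.3). Drd3, a receptor typical of the ventral striatum, rose in SC against SS (1.39 ± 0.27, adjusted p = 0.003), gave -0.18 ± 0.27 in CC against CS, and had an interaction of -1.57 ± 0.38 (adjusted p = 0.0527). CS 3 was the highest CS library (121 CPM, next 75.5). Without CS 3 the interaction of Drd3 was -0.91, and its CC minus CS difference was not refitted.

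Downstream of the receptors, 5 of 38 dopamine and cyclic AMP signalling genes were higher and 10 lower at an unadjusted p under 0.05 (median -0.27). Without CS 3 the median changed sign, and the list had a median of 0.31, 3 lower and 13 higher. Pde4b lay between 528 and 813 CPM in SS (median 611) and between 598 and 1955 in SC (1110.5). In CS, Pde4b lay between 462 and 1499 CPM (median 616), and in CC between 469.8 and 786 (622). Pde4b is a phosphodiesterase that breaks down cyclic AMP (ENSMUSG00000028525.16, chromosome 4, 102087543 to 102607259, plus strand). With all libraries it rose in SC against SS (1.67 ± 0.31, adjusted p = 0.00293) and not detectably in CC against CS (-0.14 ± 0.31, adjusted p = 0.865). CS 3 held 1499 CPM of Pde4b and the next CS library 693, and the CC minus CS difference was not refitted without CS 3. The interaction was -1.81 ± 0.44 (adjusted p = 0.0527), -0.94 without CS 3 and -1.18 without CC 1 and 3, CS 3 and SC 7 (adjusted p = 0.0526). Ppp1r1b, which encodes DARPP-32, an inhibitor of protein phosphatase controlled by protein kinase A, gave 1.96 ± 0.73 (adjusted p = 0.123). Without CC 1 and 3 the value of Ppp1r1b was 0.72.

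Neuropeptide and opioid receptor genes had 10 of 23 higher and 0 lower at an unadjusted p under 0.05 (median 0.67). Cartpt spanned 1.69 to 44.6 CPM in the SS libraries, with a median of 19.9, and 0 to 37.6 in the SC libraries, with a median of 3.38. Cocaine-history libraries gave Cartpt values of 2.996 to 11.1 CPM in CS (median 7.62) and 9.42 to 70.9 in CC (17.4). Cartpt, the cocaine- and amphetamine-regulated transcript (ENSMUSG00000021647.7, chromosome 13, 99898489 to 99901091, minus strand), was above the CS mean in all 10 CC libraries, rose in CC against CS (2.38 ± 0.65, adjusted p = 0.0209) and gave -0.94 ± 0.60 in SC against SS. Its interaction was 3.32 ± 0.88 (adjusted p = 0.0527), and 2.11 without CC 1 and 3. Nts, neurotensin, gave 2.66 ± 0.71 at the same adjusted p.

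With saline history, Pdyn ranged from 18.9 to 209 CPM in SS (median 105) and from 10.7 to 222 in SC (61.1). With cocaine history, Pdyn ranged from 27.7 to 85.9 CPM in CS (median 48.2) and from 28.8 to 477 in CC (106). Pdyn, the precursor of dynorphin, rose in CC against CS (2.14 ± 0.59, adjusted p = 0.021), and its interaction was 2.02 ± 0.78 (adjusted p = 0.139). CC 1 and CC 3 held 420.4 and 477 CPM, and the value without them was 0.65. Tac1 lay between 9.63 and 271 CPM in SS (median 128) and between 19.96 and 245 in SC (46.1). In CS, Tac1 lay between 28.2 and 125 CPM (median 66.1), and in CC between 52.98 and 493 (142). Tac1, the precursor of substance P, gave 2.21 ± 0.80 (adjusted p = 0.113), and 0.99 without CC 1 and 3.

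Penk spanned 12.2 to 612 CPM in the SS libraries, with a median of 231, and 33.7 to 383 in the SC libraries, with a median of 86.5. Cocaine-history libraries gave Penk values of 39.8 to 439 CPM in CS (median 143) and 124 to 1328 in CC (768). Penk, the precursor of enkephalin and a marker of D2 neurons, gave 2.63 ± 0.86 (adjusted p = 0.0819). The 4 CC libraries highest in Drd2 (CC 4, 9, 7 and 10) held 1328, 980.2, 1189 and 688 CPM of Penk, and CC 1 and 3, with 59.8 and 60.3 CPM of Drd2, held 848 and 858. The interaction of Penk without CC 1 and 3 was 2.23, and the value without the libraries against their label was 2.72. The 8 D2 markers tested summed to 231 to 2440.2 CPM in CC, 184 to 1176 in CS, 129 to 561 in SC and 140.5 to 787 in SS; their part in the peptide values was not tested.

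The values of a few genes moved strongly with single libraries. Clec2e lay between 2.75 and 5.92 CPM in SS (median 3.91) and between 1.34 and 42.3 in SC (5.98). In CS, Clec2e lay between 4.27 and 43.6 CPM (median 6.25), and in CC between 0.455 and 5.90 (4.63). Clec2e, a C-type lectin of immune recognition, had the smallest p of all named genes and an interaction of -3.91 ± 0.76 (adjusted p = 0.0527). CS 3 held 43.6 CPM, SC 1, 5 and 9 held 42.3, 23.03 and 21.3, and without CS 3 the value was -2.23. With saline history, Hepacam ranged from 11.1 to 20.2 CPM in SS (median 14.03) and from 3.04 to 669 in SC (12.99). With cocaine history, Hepacam ranged from 5.54 to 22.9 CPM in CS (median 17.3) and from 9.56 to 17.03 in CC (14.7). Hepacam, an adhesion protein of astrocytes, reached 669 CPM in SC 5, a library of 651445 counts, and its interaction of -3.26 ± 0.88 (adjusted p = 0.053) was -0.17 without it. P2ry14 spanned 15.5 to 23.01 CPM in the SS libraries, with a median of 19.02, and 13.8 to 51.3 in the SC libraries, with a median of 36.1. Cocaine-history libraries gave P2ry14 values of 16.2 to 46.3 CPM in CS (median 19.1) and 8.99 to 19.98 in CC (16.8). P2ry14, a receptor for sugar nucleotides that lies within Med12l on the other strand, gave -1.97 ± 0.43 (adjusted p = 0.0527) and -1.16 without CS 3.

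Markers of other cells had counts in all groups, and such counts can include background reads. CC 3 and CS 7 had the lowest and highest background share of the D1 libraries (4.04% and 70.7%). Endothelial and mural markers summed to 46.7 and 479 CPM there. Astrocyte markers (819.5 and 694 CPM) and oligodendrocyte markers (564 and 552 CPM) went the other way. The part of background in the marker counts was not tested. Glutamatergic markers had 1 of 10 higher and 3 lower at an unadjusted p under 0.05 (median -0.66), astrocyte markers 0 of 13 higher and 3 lower (-0.18), and oligodendrocyte markers 3 of 14 higher and 3 lower (-0.11). Oligodendrocyte precursor markers had 1 of 9 higher and 0 lower (-0.43), and GABAergic interneuron markers 2 of 13 higher and 1 lower (-0.19), the higher ones Sst (2.53) and Npy (1.80). Without CC 1 and 3, Sst gave 1.52 and Npy 0.999. Microglia markers had 0 of 12 higher and 2 lower, choroid plexus and ependymal markers 2 of 11 higher and 2 lower, and cholinergic, endothelial and mural markers 0 in either direction. The 13 astrocyte markers summed to 634 to 883 CPM in SS, 667 to 1529 in SC, 658 to 1131 in CS and 643 to 819.5 in CC. The 10 glutamatergic markers summed to 149.7 to 255, 47.7 to 443, 83.6 to 252 and 171 to 223 in the same order. No marker was at 0 in all 37 libraries. Outside SC 5, Neurod1, Neurod6 and Slc17a7 among glutamatergic and Aqp4 and S100b among astrocyte markers were at 0 in at least 1. So were members of other lists, such as Npy, Olig1 and Cldn5.

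The same contrast was then set beside the D2 line, 38 libraries sorted from D2-Cre mice on the same schedule. With all 75 libraries in 1 fit, 81 of 39250 genes passed for the D2 interaction (0.206%), 0 higher and 81 lower, and 3 of the D2 libraries held 19825, 19980 and 26297 counts; 9 of the 38 failed the quality rule, 5 of them among the 10 CS libraries. With the failing libraries dropped 0 passed (1007 genes at an unadjusted p under 0.05). The test of the difference, the D1 interaction minus the D2 interaction, called 0 of 39250 genes (0%), with 4065 at an unadjusted p under 0.05 (10.4%), and DESeq2 and limma with library weights each called 1. Ribosomal protein genes had a median of 2.36 in D1 and 0.36 in D2, and a median difference of 1.98. Heat shock genes had 1.32 and -0.48, immediate early genes 0.42 and -0.56, synaptic adhesion genes -1.01 and -0.61, and scaffolds -0.96 and -0.85. For Hsp90aa1 the D1 minus D2 difference was 2.43 (adjusted p = 0.418), for Nrxn3 -1.47 (0.532) and for Fosb 2.26 (0.324). The difference between the lines was thus not shown for any gene by the quasi-likelihood test.

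**Figure D5:**
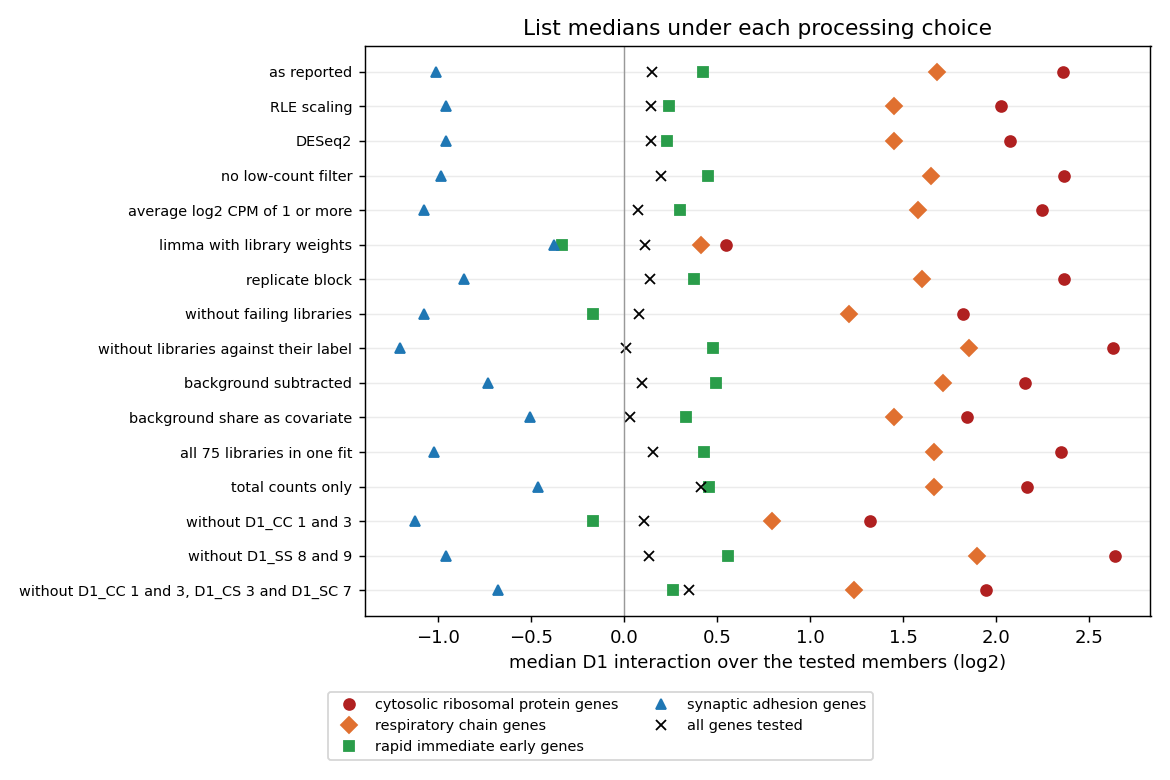
Median D1 interaction (log2) of 4 gene lists and of all genes tested, 1 row per processing choice. Ribosomal and respiratory genes stay to the right of all genes and synaptic adhesion genes to the left in all 16 rows, while immediate early genes move from 0.42 as reported to -0.17 without CC 1 and 3 and -0.34 with library weights.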

How the data were processed

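Nuclear RNA of sorted D1 nuclei was measured in 37 libraries, and the 38 D2 libraries entered only the comparison between lines. The authors deposited whole-number counts for 55401 gene identifiers and FPKM values. The submitters' processing notes name featureCounts, DESeq2 and the build mm10. The aligner, strand setting and versions are not given in the sources used here. FPKM, as deposited by the authors, equal counts per total and gene span in GENCODE M21 (54271 of 54271 identifiers compared, within 0.5 bases) and served only for gene lengths. A kit that keeps strand was used per the labels' protocols, but how strand was counted is not known, so genes that overlap others (63 of the 112 genes chosen for naming) are uncertain.

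The interaction was fitted on counts in edgeR 4.0.16 (R 4.3.3; TMM scaling, filterByExpr by group, glmQLFit and glmQLFTest, 4 groups in 1 fit) with Benjamini-Hochberg adjustment over the 37721 genes tested and a threshold of 0.05. The fit was checked on simulated counts with known interactions, drawn from the same mean profile in every library. That check does not cover the differences in background and long-gene share between these libraries. CPM use a library's total, while fitted log2 values use TMM factors, so the scales can differ. Standard errors follow from the fitted value and its test statistic. limma 3.58.1 (library weights) and DESeq2 1.42.0 were alternatives. Named genes were the 10 with the smallest p in each direction (average log2 CPM of at least 1, conventional symbol), the 3 members of each list with the smallest p, and 17 fixed genes; Kcnk13, Ubash3b, Nxph3, Hes1 and Ccn2 were chosen after their values were seen. Comparison, lists and genes were chosen with earlier results of these data known, and some of these genes are not reported here. A library failed the quality rule with a total under the line's median divided by 3, with genes seen or rank correlation over 4 scaled deviations below the line's median, or with a Drd1 to Drd2 ratio nearer the other line. Promoter windows came from RefSeq (GRCm38.p6); 20542 genes matched by symbol.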

Additional observations from a re-analysis of the deposited data

Results flagged for a closer look

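A library was singled out where its distance to the nearest other library of its group, divided by the range of the group, exceeded Dixon's critical value. Of 164 sets of values examined 26 did, and chance gives about 1 in 20.

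CS 3 accounted for 13 of them. It was the highest of the 8 CS libraries for Opcml (1782 CPM, next 1013), Nrxn3 (8601, next 2899.9), Magi2 (2107, next 1303) and Homer1 (480.3, next 219). It was also the highest for Pde4b (1499 CPM, next 693), Drd3 (121, next 75.5), P2ry14 (46.3, next 22.2) and Clec2e (43.6, next 7.72). The summed levels of synaptic adhesion genes (29661 CPM) and scaffolds (15746 CPM) and the share of counts in genes longer than 100 kb (60.1%) were highest there too. Its background share (10.2%) and its Hepacam level (5.54 CPM) were the lowest of the group.

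SC 7 was the highest of 9 SC libraries for Cartpt (37.6 CPM), Arc (75.2), Fos (20.2), Nap1l5 (36.4), Slc17a7 (129) and the sum of ribosomal protein genes (3463). Slc17a7, the vesicular glutamate transporter of cortical neurons, was also apart in SS 5 (33.5 CPM) and CS 7 (25.3). The remaining values were Igf1r in CS 7 (276 CPM), Neat1 in SC 6 (35.99), Hepacam in SC 5 (669), Drd2 in CS 4 (465) and the sum of scaffolds in CC 5 (8179).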

How the results depend on the processing

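The quasi-likelihood count of 0 genes became 1193 with RLE scaling, 2939 in DESeq2, 1453 once genes below an average log2 CPM of 1 were dropped, 17 in limma with library weights and 2688 (2178 higher, 510 lower) with the background share as covariate. It became 1258 with all 75 libraries in 1 fit and, in alternatives chosen after seeing the data, 692 (593 higher, 99 lower) with total counts only, where the median of all genes moved to 0.42, 1712 without SS 8 and 9, and 119 without CC 1 and 3, CS 3 and SC 7. It stayed at 0 with no low-count filter, without failing libraries, without those against their label, with background subtracted and, added later, without CC 1 and 3. Leaving out 1 library gave 0 to 2517. The labels do not say whether replicate numbers pair the libraries, and correlations cannot settle it. Of 52 same-numbered pairs 19 deviated together (correlation over 0.1, median -0.0107, highest 0.79). Pairs with other numbers had a median of 0.0158. Only 6 of 37 libraries correlated best with their own number, and the replicate block also gave 0 calls. For D2, 81 became 11 (RLE), 7 (DESeq2), 0 with the replicate block, 0 without failing libraries and 1 in limma, and for D1 minus D2, 0 became 1 in DESeq2 and 1 in limma. The background difference ran from -27.2 to -20.5 points (SC minus SS) and from -17.6 to -6.41 (CC minus CS) with 1 library left out, and the latter passed without CS 3 (-17.6, exact p = 0.0438). Of the 112 genes chosen for naming, 100 kept their direction in every alternative they were run in (of the 112, 108 were run in all 15, 3 in 14 and 1 in 11). The others turned under these settings. In limma with library weights the values were Pdyn -0.14, Fosb -0.68, Egr1 -0.064, Arc -0.51, Fos -0.60, Npas4 -0.64, Drd2 0.65, Bdnf -0.0191 and Slc35d3 -0.10. Without CC 1 and 3 they were Fosb -0.15, Fos -0.53 and Npas4 -0.29, and without failing libraries Arc -0.0406, Fos -0.34, Npas4 -0.35 and Hepacam 0.00541. Per1 was 0.0732 and Drd2 0.0274 with total counts only, and Per1 0.0356 and Nr4a1 0.00333 without SS 8 and 9. Bdnf was -0.00396 with the replicate block, -0.0798 without libraries against their label, -4.68 with background subtracted and -0.25 with the covariate. With 1 library left out, Fos ran from -0.0604 to 0.86, Per1 from -0.59 to 0.49, Drd2 from -0.83 to 0.22 and Nr4a1 from -0.59 to 0.35. The cause was not tested. SC 5, with 651445 counts, limits what low genes can show.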

Other observations

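limma with library weights, which gives less weight to libraries far from their group, called 17 genes, 4 higher (the gene models Gm12730, Gm18996, Gm14638 and Gm28955) and 13 lower. The genes below were chosen after their values were seen, apart from Slc17a7, Tbr1, Ppm1h, Nr4a3 and Ntrk2. Slc17a7 lay between 3.66 and 33.5 CPM in SS (median 6.97) and between 0 and 129 in SC (12.5). In CS, Slc17a7 lay between 5.54 and 25.3 CPM (median 9.77), and in CC between 0.797 and 13.8 (6.69). SC 7 held 129 CPM, and without it the edgeR value was -1.22. Without CC 1 and 3, CS 3 and SC 7 it was -0.89 (adjusted p = 0.378), and that of Nxph3 -0.74. Slc17a7, the vesicular glutamate transporter of cortical neurons, gave -2.50 (adjusted p = 0.0437) in limma and -2.09 ± 0.73 (adjusted p = 0.104) in edgeR's quasi-likelihood test. With saline history, Tbr1 ranged from 3.49 to 8.59 CPM in SS (median 5.75) and from 1.105 to 18.7 in SC (6.98). With cocaine history, Tbr1 ranged from 4.94 to 11.3 CPM in CS (median 7.74) and from 0.853 to 8.296 in CC (5.02). Tbr1, a transcription factor of cortical projection neurons, gave -1.18 (adjusted p = 0.0485) and -1.45 ± 0.42 (adjusted p = 0.0582). Nxph3, a secreted ligand of neurexins, gave -1.98 (adjusted p = 0.0375) in limma and -1.54 ± 0.46 in edgeR.

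Ccn2, a matrix protein, gave -2.86 (adjusted p = 0.0485) in limma, Hes1, a repressor downstream of Notch, -1.63 (adjusted p = 0.0437), and Ntrk2, the receptor of BDNF, -1.04 (adjusted p = 0.0288). In edgeR their values were -2.24 ± 0.74, -1.54 ± 0.48 and -1.38 ± 0.40, with adjusted p of 0.0825, 0.0697 and 0.0595. Ccn2 and Hes1 had low counts. Ccn2 held 4.04, 17.7 and 11.9 CPM in SC 6, 7 and 8 and at most 0.677 in the other SC libraries. Hes1 lay between 0 and 4.65 CPM in SC. Without CC 1 and 3, CS 3 and SC 7, edgeR's quasi-likelihood test gave Ccn2 -1.59 (adjusted p = 0.161), Hes1 -0.97 (0.176) and Ntrk2 -1.14 (0.0518). Ubash3b, a tyrosine phosphatase, gave -0.70 (adjusted p = 0.0375), and Kcnk13, a potassium leak channel, -0.69 (adjusted p = 0.0437) in limma. The 10 glutamatergic markers that include Slc17a7 and Tbr1 are summed by group in the report, and their part in these values was not tested.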
